A study of Mus musculus with 12 samples.

Results

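S100a8, S100a9, Lcn2, Cd14, Tlr2 and Tlr4 are 6 mouse genes of neutrophil defence and of the sensing of bacterial products. They were chosen by name from gene tables of 55487 rows for the hippocampus and the cerebral cortex. The choice was made with their normalized counts and fold changes in these same libraries known, so their values below are a description and carry no test. RNA sequencing of total RNA, extracted with Trizol, was done in 4 groups of 3 libraries from C57BL/6 mice: hippocampus of mice labelled mTert KO (G1), called knockout (KO) here, hippocampus of mTert WT mice (WT), KO cortex and WT cortex. The labels give no treatment, age or sex. They also leave unsaid whether each library is a different animal. The p-values here therefore weigh differences between KO and WT only against the scatter of these libraries, part of which may be technical. They need not hold for other mice. Tert encodes the catalytic subunit of telomerase. The labels do not mention perfusion to clear blood from the tissue.

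S100A8 and S100A9 are small calcium-binding proteins that pair to form calprotectin, a major cytosolic protein of neutrophils that binds metal ions and can act as a danger signal. Lipocalin-2, the product of Lcn2, is kept in the specific granules of neutrophils, binds bacterial siderophores to withhold iron, and is also made by reactive astrocytes and endothelium. CD14 hands bacterial lipopolysaccharide to the complex of TLR4 and MD-2, and also helps TLR2, a receptor of bacterial lipoproteins. In the brain the Toll-like receptors are found mainly on microglia and on macrophages of its borders, while neutrophils are few outside the vessels and the meninges.

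The promoter windows of S100a8 and S100a9 are shown because both calprotectin genes, neighbours on chromosome 3, were lower in every KO than in every WT hippocampus library. Each window is RefSeq sequence of GRCm38.p6, 280 bases long, with 250 bases before the RefSeq start and 30 bases after it, on the strand of the gene and in lower case. The S100a8 window lies at chr3:90668821-90669100 on the plus strand and the S100a9 window at chr3:90695692-90695971 on the minus strand. Capitals mark matches to TATAAA, the core of a TATA box, and to TTGCNNAA.
S100a8: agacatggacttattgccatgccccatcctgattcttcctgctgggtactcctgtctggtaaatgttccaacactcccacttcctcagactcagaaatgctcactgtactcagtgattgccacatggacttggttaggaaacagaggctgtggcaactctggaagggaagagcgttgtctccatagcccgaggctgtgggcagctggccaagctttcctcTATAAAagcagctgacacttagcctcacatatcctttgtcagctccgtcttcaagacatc
S100a9: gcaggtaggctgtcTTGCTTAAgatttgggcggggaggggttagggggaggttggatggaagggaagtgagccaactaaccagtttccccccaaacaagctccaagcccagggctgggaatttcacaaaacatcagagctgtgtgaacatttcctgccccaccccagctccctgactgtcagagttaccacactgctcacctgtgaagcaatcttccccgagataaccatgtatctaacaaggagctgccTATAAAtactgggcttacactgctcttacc
The letters TATAAA begin 30 bases before the RefSeq start in S100a8 and at the RefSeq start itself in S100a9, and TTGCTTAA, a match to TTGCNNAA, begins 236 bases before the start of S100a9. Windows were searched on both strands for TATAAA, for TTGCNNAA, and for GGGA and CC with any 4 bases between them. Among 32851 windows of the same length, 13.1% held TATAAA, 10.4% held TTGCNNAA and 19.4% held the motif of GGGA and CC. The RefSeq table held 4 of the 6 genes. Lcn2 had TTGCTCAA 216 bases before its start, and Tlr2 had GGGAATTCCC 172 bases and GGGACATCCC 8 bases before its start, each of which matches that motif on both strands. All these distances are from the RefSeq start, which in S100a9 is the start of the GENCODE gene given below but lies inside that gene in the others, by 93 bases in S100a8, 513 in Lcn2 and 159 in Tlr2. A match of letters is a description and does not show that a factor binds there.

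Values are the authors' normalized counts, in which 1 read was worth 0.902 to 1.07, and the libraries held 72401909 to 86639113 reads in the hippocampus and 68424934 to 77972013 in the cortex. Tert itself was listed at 0, 6.31 and 0 in KO hippocampus, against 147, 184 and 128 in WT hippocampus, and at 0 in all 3 KO cortex libraries, against 206, 105 and 241 in WT cortex. Some libraries stood apart from others of their group. In chi-square per gene, a measure of how far the reads of 2 libraries differ, WT cortex library 2 was at 105 from library 1 and 94.9 from library 3, while libraries 1 and 3 were at 9.40 from each other. In the hippocampus the summed choroid plexus markers, genes of the tissue that makes cerebrospinal fluid, were 18840, 9562 and 13755 in the KO libraries and 358791, 13098 and 185892 in the WT libraries, so WT libraries 1 and 3 stood far above the others. Markers of cortical neurons in the cortex and of hippocampal neurons in the hippocampus were all detected, but some differed between KO and WT. Of 8 hippocampal markers 2 rose and 3 fell in KO hippocampus, where 29.2% of all genes were called. Of 8 cortical markers 1 rose and 1 fell in KO cortex, where 1.94% of all genes were called. Of 7 hippocampal markers tested in the cortex 0 rose and 2 fell, among them C1ql2 at -2.20 (limma adjusted p = 0.00847).

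S100a8 (GRCm38 chr3:90668978-90670035, plus strand) was lower in KO than in WT tissue of both regions. In the hippocampus it had 0, 6.31 and 4.83 normalized counts in the KO libraries, against 27.5, 26.8 and 23.3 in the WT libraries. Those are 0, 7 and 5 reads against 27, 25 and 22 reads, so all 3 KO libraries lay below all 3 WT libraries. The means were 3.72 ± 3.30 in KO and 25.8 ± 2.24 in WT hippocampus (SD, n = 3 each), and the log2 fold change of KO over WT on log2(normalized count + 1) was -2.94 ± 0.75 (SE). It was -2.03 without KO library 1, which is at 0, and -1.90 with a pseudocount of 5 in place of 1. In the cortex no read of S100a8 was counted in any of the 3 KO libraries, against 7.93, 97.2 and 31.6 normalized counts in the WT libraries. The WT mean of 45.6 ± 46.2 was at least 15.0-fold above the KO group with each KO library set at a floor of 3 reads. Without WT library 2 the WT mean was 19.7 and that bound 6.48-fold. The 3 WT cortex libraries themselves spanned the range between 7.93 and 97.2, with the highest value in library 2, the one that stood apart. S100a8 passed the filter on low values, a mean of 10 normalized counts over a table, only through the WT libraries, as did S100a9 and Lcn2 in the cortex. In bulk tissue, fewer cells of a type and less RNA per cell cannot be told apart.

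S100a9 (chr3:90692632-90695721, minus strand), the partner of S100a8, was lower on average in KO tissue of both regions. In the hippocampus it had 11.7, 18.04 and 13.5 normalized counts in the KO libraries, from 12, 20 and 14 reads, against 47.8, 28.9 and 41.3 in the WT libraries. Every KO library lay below every WT library, with means of 14.4 ± 3.25 in KO and 39.3 ± 9.61 in WT (SD, n = 3 each) and a log2 fold change of -1.38 ± 0.31 (SE). In the cortex it had 6.58, 13.5 and 0 normalized counts in the KO libraries, against 12.9, 131 and 30.6 in the WT libraries. KO library 2 lay just above WT library 1, so the groups overlapped. The log2 fold change in the cortex was -3.02 ± 1.16 (SE), and leaving out single libraries moved it between -3.81, without KO library 2, and -1.89, without KO library 3. It was -2.13 without WT library 2 and -3.76 without WT library 1.

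Lcn2 (chr2:32384633-32388252, minus strand) had 25.4, 11.7 and 24.2 normalized counts in KO hippocampus, against 15.3, 33.2 and 25.4 in WT hippocampus. These groups overlapped, with a log2 fold change of -0.27 ± 0.42 (SE). In the cortex Lcn2 had 9.41, 5.17 and 2.14 normalized counts in the KO libraries, from 10, 5 and 2 reads, against 4.95, 41.1 and 28.7 in the WT libraries. WT library 1 lay among the KO values, and the log2 fold change of -1.73 ± 0.83 (SE) became -1.18 without WT library 2 and -2.59 without WT library 1. In the WT cortex, S100a8, S100a9 and Lcn2 shared 1 order, highest in library 2, then library 3, and lowest in library 1. In the WT hippocampus they did not share an order, since Lcn2 was highest in library 2 where S100a9 was lowest.

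**Figure D1:**
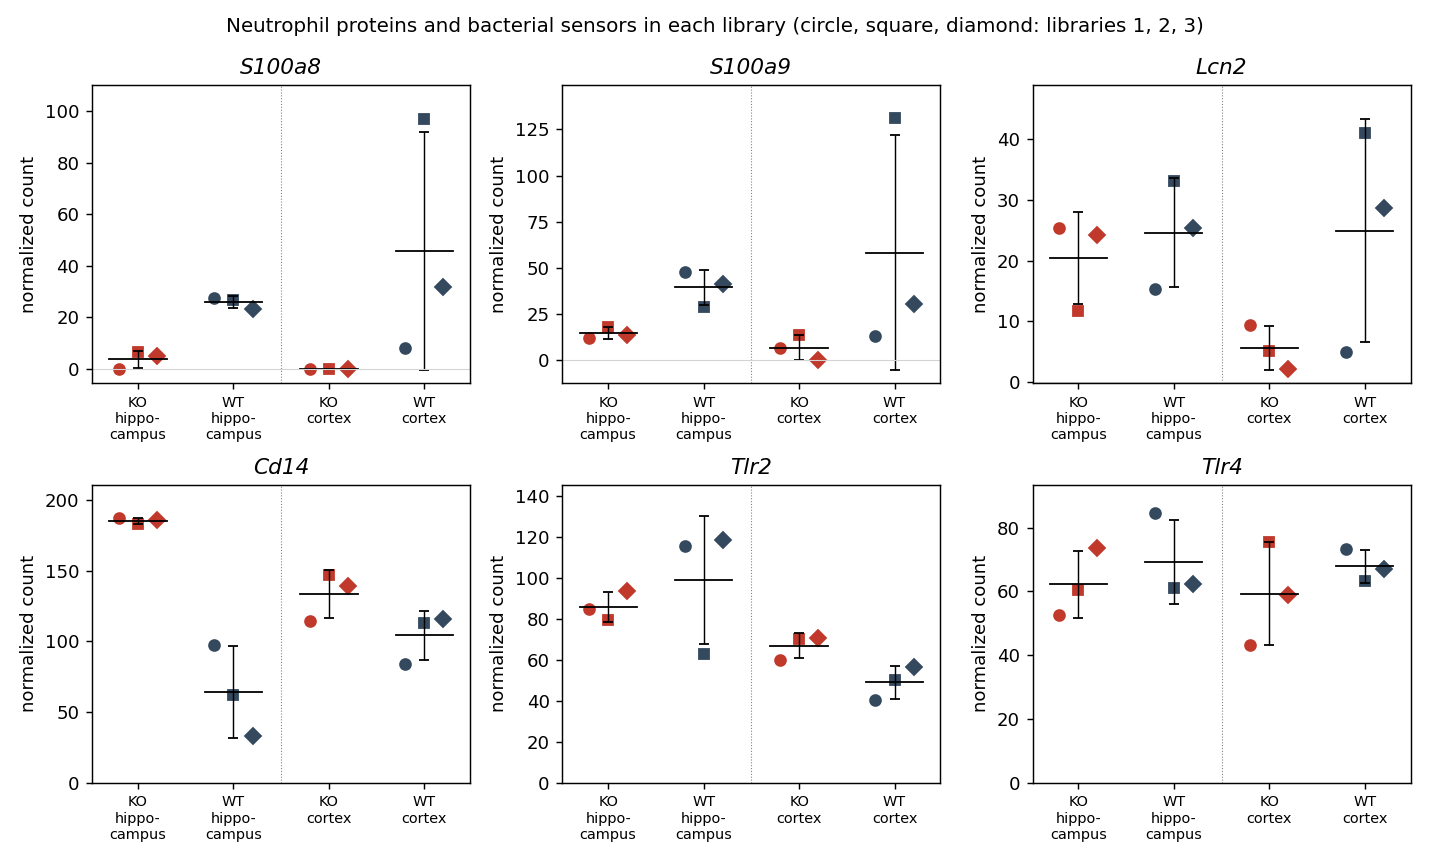
Normalized counts of the 6 genes in each library (circle, square and diamond for libraries 1, 2 and 3), in KO hippocampus, WT hippocampus, KO cortex and WT cortex from left to right; horizontal lines are means and bars are SD over 3 libraries. S100a8 was at 0 in the 3 KO cortex libraries, and Cd14 lay between 183 and 187 in the 3 KO hippocampus libraries, against 32.8 to 97.7 in the WT ones.

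Cd14 (chr18:36725067-36726798, minus strand), the coreceptor, was higher in KO than in WT hippocampus. It had 187, 183 and 186 normalized counts in the KO libraries, against 97.7, 62.1 and 32.8 in the WT libraries. The KO libraries were nearly level with each other and all above the WT libraries, which differed widely among themselves. The means were 185 ± 2.19 in KO and 64.2 ± 32.5 in WT (SD, n = 3 each), with a log2 fold change of 1.65 ± 0.35 (SE). Leaving out single libraries moved that value between 1.24, without WT library 3, and 2.01, without WT library 1. In the cortex Cd14 had 115, 147 and 139 normalized counts in the KO libraries, against 84.2, 113 and 116 in the WT libraries. There KO library 1 lay among the WT values, and the log2 fold change was 0.36 ± 0.19 (SE).

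Tlr2 (chr3:83836272-83841767, minus strand) had 84.9, 79.4 and 93.8 normalized counts in KO hippocampus, against 116, 63.1 and 119 in WT hippocampus. WT library 2 lay below all KO libraries and the other two WT libraries above them, and the log2 fold change was -0.15 ± 0.26 (SE). WT libraries 1 and 3, in which Tlr2 was high, were also those with high choroid plexus markers. The part of choroid plexus RNA in this pattern was not tested. In the cortex Tlr2 had 60.2, 70.4 and 70.6 normalized counts in the KO libraries, against 40.6, 50.1 and 56.4 in the WT libraries. All KO cortex libraries lay above all WT ones, with a log2 fold change of 0.45 ± 0.20 (SE).

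Tlr4 (chr4:66827584-66930284, plus strand), the receptor of lipopolysaccharide, had overlapping groups in both regions. It had 52.7, 60.4 and 73.5 normalized counts in KO hippocampus, against 84.4, 61.0 and 62.4 in WT hippocampus. In the cortex it had 43.3, 75.5 and 58.8 normalized counts in the KO libraries, against 73.3, 63.1 and 67.0 in the WT libraries. The log2 fold changes were -0.15 ± 0.22 in the hippocampus and -0.23 ± 0.24 in the cortex (SE).

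Of the 6 genes, 3 had groups that did not overlap in the hippocampus, Cd14 with the KO libraries above and S100a8 and S100a9 with them below. Over all genes tested there, 45.8% had groups that did not overlap. In the cortex 2 of the 6 did not overlap, Tlr2 with the KO libraries above and S100a8 with them below, where 28.3% of all genes tested did not. Since the 6 genes were named with these contrasts known, nothing is read from these counts. The 2 regions are set side by side without a test: the log2 fold changes were -2.94 and -4.93 for S100a8, -1.38 and -3.02 for S100a9, -0.27 and -1.73 for Lcn2, 1.65 and 0.36 for Cd14, -0.15 and 0.45 for Tlr2, and -0.15 and -0.23 for Tlr4, with the hippocampus first in each pair. The cortex value of S100a8 rests on KO libraries that are all at 0 and is no bound.

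Per kilobase of exon, Cd14 was the most abundant of the 6 in KO tissue and S100a9, on average, in WT tissue. In KO hippocampus the means in normalized counts per kilobase were 107 for Cd14, 28.5 for Tlr2, 27.6 for S100a9, 11.2 for Tlr4, 7.79 for Lcn2 and 5.35 for S100a8. Only the gap below Cd14 and that between S100a9 and Tlr4 separated neighbours without overlap of their libraries. In WT hippocampus the order was S100a9 at 75.3, S100a8 at 37.2, Cd14 at 37.1, Tlr2 at 32.9, Tlr4 at 12.5 and Lcn2 at 9.38, and the neighbours S100a8, Cd14 and Tlr2 overlapped, as did Tlr4 and Lcn2. In KO cortex Cd14 had 77.1, Tlr2 22.3, S100a9 12.8, Tlr4 10.7, Lcn2 2.12 and S100a8 0 normalized counts per kilobase, and Tlr2, S100a9 and Tlr4 overlapped as neighbours. In WT cortex S100a9 had 112, S100a8 65.6, Cd14 60.3, Tlr2 16.3, Tlr4 12.2 and Lcn2 9.50, where the first 3 overlapped as neighbours and so did the last 2. The lead of S100a9 there came from library 2, at 251, while Cd14 was above it in libraries 1 and 3 and, without library 2, averaged 57.7, against 41.7 for S100a9.

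Other neutrophil genes were set beside these, from a list of 20 granule, receptor and surface genes that does not hold the 6. In the hippocampus 9 of the 20 passed the filter on low values and 2 fell in KO at a limma adjusted p below 0.05, where 29.2% of all 22337 genes tested were called and 15.1% were called lower. The median log2 fold change over the 9 was -0.12, against 0.02 over all genes. Ngp, a neutrophil granule protein, had 9.76, 4.51 and 13.5 normalized counts in KO hippocampus, against 36.6, 25.7 and 26.5 in WT hippocampus. Its log2 fold change was -1.67 ± 0.43 (SE, limma adjusted p = 0.023), and the call was lost without KO library 1 or 2 or without WT library 1 or 3, at values between -1.76 and -1.27. Itgb2l, an integrin subunit gene that overlaps Igsf5 on the other strand, fell by 3.65 on the log2 scale (limma adjusted p = 0.021). Its call was lost without those same 4 libraries, at values between -3.67 and -3.02. In the cortex 7 of the 20 passed the filter and 1 fell, where 1.94% of all 21945 genes tested were called and 0.661% were called lower. The median over those 7 was -0.81, against -0.01 over all genes. Ngp passed the filter in the cortex only through the WT libraries, so nothing further is read from this median. The gene that fell was Prtn3, a serine protease of primary granules that overlaps Plppr3 on the other strand, at -1.16 ± 0.20 (SE, limma adjusted p = 0.0439). Its call was lost with any library but WT library 2 left out, at values between -1.29 and -1.04. Ngp and Itgb2l passed the filter in the hippocampus only through the WT libraries, with KO means of 9.27 and 1.61 normalized counts. A call of either could thus only be of a fall, and the count of 2 and the median over the 9 support nothing further. Without strand information in the sources used here, reads of overlapping genes cannot be told apart.

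In the cortex Ngp had 3.76, 0 and 4.28 normalized counts in the KO libraries, against 11.9, 98.2 and 29.7 in the WT libraries, and did not pass the test (limma adjusted p = 0.114). The granule genes Camp, Elane and Mpo, which the naming rule did not pick, were chosen after their values were seen. Camp, which encodes the antimicrobial peptide cathelicidin, was listed at 0 in all 3 KO hippocampus libraries, against 8.14, 11.8 and 19.1 in WT hippocampus, at least 4.56-fold lower. In the cortex Camp had 0, 0 and 4.28 in the KO libraries, against 0, 36.1 and 17.2 in the WT libraries. Elane, neutrophil elastase, was listed at 0 in the 3 KO cortex libraries, against 0, 19.0 and 9.57 in WT cortex. Mpo, myeloperoxidase, was listed at 0 in the 3 KO cortex libraries, against 10.9, 35.1 and 0 in WT cortex, but had 9.76, 16.2 and 8.70 in KO hippocampus, against 13.2, 17.1 and 14.8 in WT hippocampus. Ltf, lactoferrin, differed from these in the hippocampus, with 156, 113 and 12.6 normalized counts in the KO libraries, against 24.4, 26.8 and 45.5 in the WT libraries. Of the 15 list genes with any read in WT cortex, 4 had the order of S100a8, S100a9 and Lcn2, highest in library 2 and lowest in library 1, namely Ngp, Camp, Elane and Il1r2, and the other 11 did not. Il1r2, though, had every KO cortex library above every WT one, with a log2 fold change of 0.44 (limma adjusted p = 0.515). The order was taken from S100a8, S100a9 and Lcn2, and the share of all genes with that order is not given here. Nothing is therefore read from the count of 4. Csf3r, Mmp9 and Hp, which were not called, had 0.06, -0.12 and 0.13 in the hippocampus. In the cortex they had -0.0027, 0.32 and -0.81. Of the 20 genes, 8 were listed at 0 in every KO hippocampus library, against 5 in every WT hippocampus library, and likewise 8 in KO cortex, against 5 in WT cortex. The summed list was 831 to 945 normalized counts in KO and 882 to 951 in WT hippocampus, and 684 to 801 in KO and 778 to 1104 in WT cortex.

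**Figure D2:**
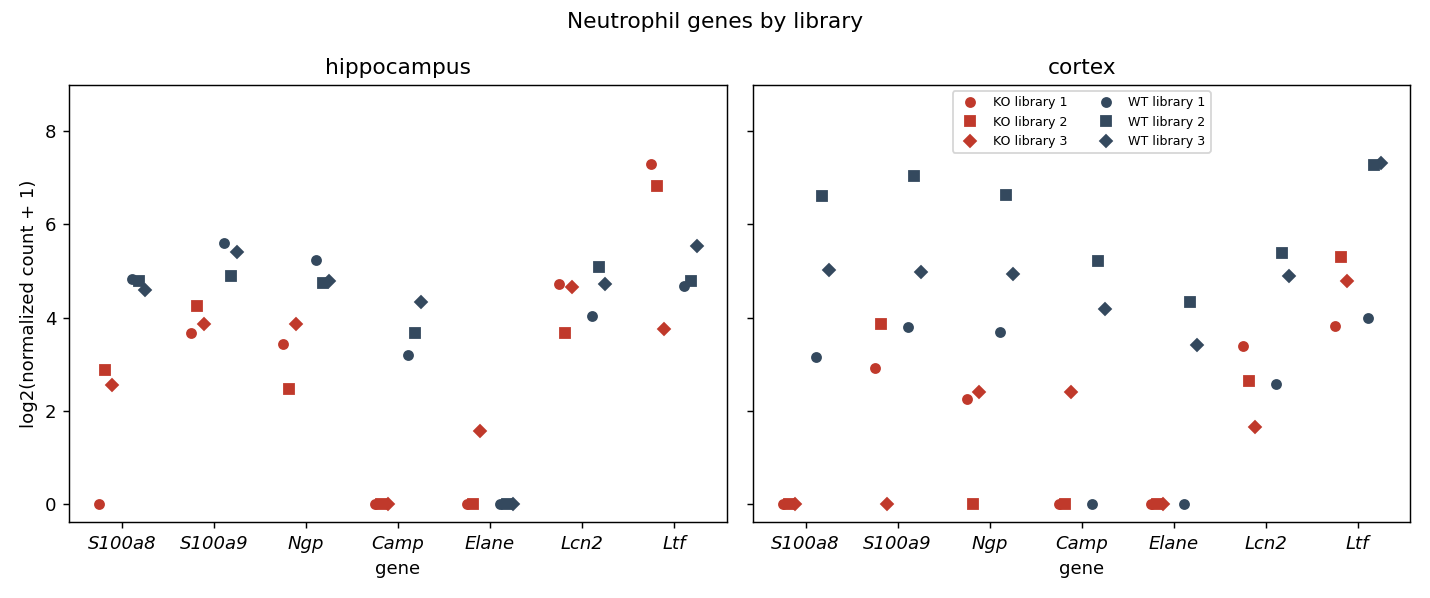
log2(normalized count + 1) of 7 neutrophil genes in each library, hippocampus left and cortex right, KO red and WT dark blue, with circle, square and diamond for libraries 1, 2 and 3. Camp and Elane were chosen after their values were seen. Other genes of the list are not shown, among them Il1r2 and Mmp9, with positive log2 fold changes in the cortex, and Csf3r, Hp and Mpo. S100a8, S100a9 and Ngp lay lower in all KO than in all WT hippocampus libraries, and in WT cortex library 2 held the highest S100a8, at 97.2 normalized counts, and S100a9, at 131.

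Neutrophils and red cells both circulate in blood, and the erythroid markers, mainly globin genes, are given beside the neutrophil genes. Their part in those values was not tested. The erythroid sum was 19410 to 25065 normalized counts in KO and 22866 to 25545 in WT hippocampus, and 15081 to 18308 in KO cortex, against 13995, 25567 and 15786 in WT cortex libraries 1, 2 and 3. WT cortex library 2 thus also had the highest erythroid sum of the WT cortex. Per 10000 normalized counts of erythroid markers, S100a8 was at 0, 2.52 and 2.21 in KO hippocampus, against 10.8, 11.7 and 10.003 in WT hippocampus. On the same scale S100a9 was at 6.04, 7.20 and 6.19 in KO hippocampus, against 18.7, 12.6 and 17.7 in WT hippocampus. In the cortex S100a9 was at 3.60, 8.92 and 0 in the KO libraries, against 9.202, 51.3 and 19.4 in the WT libraries, which did not overlap on that scale, though KO library 2 and WT library 1 lay close together. Of 7 erythroid genes tested in the hippocampus, 1 rose, where 14.1% of all genes were called higher. It was Bpgm, at 0.20 (limma adjusted p = 0.0104), or 0.18 without WT library 3, where the call was lost. None of the globin genes was called in the hippocampus. Of the 7 tested in the cortex none was called, where 1.94% of all genes were.

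Microglia markers were mostly higher in KO than in WT hippocampus, as Cd14 was. All 20 passed the filter, 16 rose and 0 fell in KO at a limma adjusted p below 0.05, where 14.1% of all genes tested were called higher, and the median log2 fold change was 0.35, against 0.02 over all genes. Itgam, the alpha chain of complement receptor 3, rose by 0.55 ± 0.05 (SE, limma adjusted p = 0.000219), and P2ry12, a purine receptor of resting microglia that overlaps Med12l, rose by 0.69 ± 0.08 (SE, limma adjusted p = 0.000634). Csf1r rose by 0.48 and Gpr34 by 0.55 on the log2 scale. The summed list was 51913 to 53749 normalized counts in KO hippocampus, against 36442, 43570 and 40023 in WT hippocampus libraries 1, 2 and 3. Among the WT libraries the sum was thus lowest in library 1, where Cd14 was highest. Per 1000 normalized counts of that sum, Cd14 was at 3.61, 3.41 and 3.57 in the KO libraries, against 2.68, 1.42 and 0.82 in the WT libraries. These groups did not overlap, and the part of microglia in the Cd14 values was not tested. On that scale Tlr4 was at 1.02, 1.12 and 1.41 in KO hippocampus, against 2.32, 1.40 and 1.56 in WT hippocampus. In the cortex 1 of the 20 microglia markers rose, where 1.28% of all genes tested were called higher, namely P2ry12 at 0.36 ± 0.06 (SE, limma adjusted p = 0.0424), a call lost with any library but WT library 2 left out at 0.35 to 0.37. The median over the 20 in the cortex was 0.09, against -0.01 over all genes, and 0 fell. Aif1, Olfml3, C1qa, C1qb, C1qc, Tyrobp, Fcrls and Trem2 had negative log2 fold changes there, between -0.39 and -0.01, and were not called. Aif1, at -0.39, had every KO cortex library below every WT one. The sum in the cortex was 38114 to 38579 in KO, against 33541 to 37878 in WT. Per 1000 of that sum, Tlr2 in the cortex was at 1.56, 1.85 and 1.85 in the KO libraries, against 1.21, 1.32 and 1.66 in the WT libraries, and these groups overlapped.

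Of 15 markers of monocytes and border macrophages, 13 passed the filter in each region. Mrc1, the mannose receptor of border macrophages, was the 1 that rose in the hippocampus, at 0.43 ± 0.12 (SE, limma adjusted p = 0.0291). Of all genes tested there, 14.1% were called higher. The call of Mrc1 was lost without KO library 2 or 3 or WT library 3, at 0.36 to 0.41. None of the 13 was called in the cortex, where 1.94% of all genes were. The sum of the 15 markers was 1785 to 2240 in KO and 1841 to 2464 in WT hippocampus, and 1101 to 1581 in KO and 1355 to 1754 in WT cortex. Among 12 reactive astrocyte markers, which are given because such astrocytes also make lipocalin-2, 2 rose and 2 fell in KO hippocampus, a share near the 29.2% of all genes called there. In KO cortex 1 of the 12 fell, where 0.661% of all genes were called lower. Gfap, the intermediate filament of astrocytes, rose by 0.26 ± 0.04 in the hippocampus (SE, limma adjusted p = 0.00403), and Gfap was also the gene that fell in the cortex. Timp1, a metalloproteinase inhibitor that overlaps Syn1 on the other strand, fell by 1.19 in the hippocampus (limma adjusted p = 0.0113) and had -1.05 in the cortex (limma adjusted p = 0.163). Serpina3n rose by 0.28 and Aspg fell by 0.46 in the hippocampus. The call of Timp1 was lost without WT library 3, at -1.08, and those of Serpina3n and Aspg without several single libraries, at 0.25 to 0.30 and -0.51 to -0.35.

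The other receptors and coreceptors of the Toll-like family were 16 genes, of which 14 passed the filter in the hippocampus. Of these 2 rose and 0 fell in KO, a share near the 14.1% of all genes called higher. Both belong to 1 surface complex of B cells and myeloid cells that resembles TLR4 with MD-2. Ly86, which encodes its MD-1 subunit, averaged 655 ± 54.4 normalized counts in KO and 485 ± 16.8 in WT hippocampus (SD, n = 3 each; log2 fold change 0.43 ± 0.08, limma adjusted p = 0.00747). Cd180, its receptor subunit, averaged 271 ± 19.6 in KO and 178 ± 36.7 in WT hippocampus (log2 fold change 0.62 ± 0.16, limma adjusted p = 0.0217). Cd180 overlaps Mast4 on the other strand, and its call was lost without KO library 1, KO library 2 or WT library 1, at 0.54 to 0.60. Ly96, which encodes MD-2, the partner of TLR4, had a log2 fold change of 0.14 ± 0.36 and was not called. Lbp, which encodes the protein that delivers lipopolysaccharide to CD14, had 607, 435 and 520 normalized counts in KO hippocampus, against 2114, 421 and 1234 in WT hippocampus (-1.0 ± 0.51, limma adjusted p = 0.182). Its 2 high values were in the WT libraries with high choroid plexus markers, whose part in them was not tested.

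**Figure D3:**
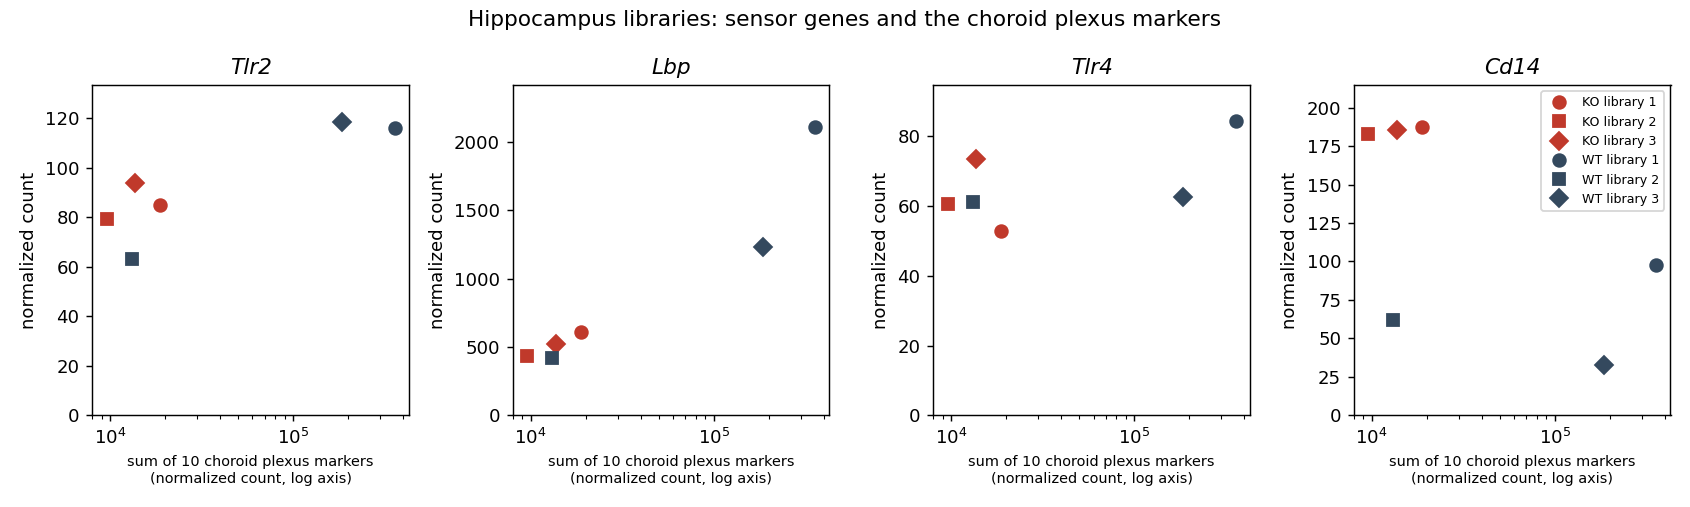
Normalized counts of Tlr2, Lbp, Tlr4 and Cd14 (vertical axes) against the sum of 10 choroid plexus markers (log axis) in the 6 hippocampus libraries, KO red and WT dark blue. WT libraries 1 and 3, with marker sums of 358791 and 185892, held the highest Tlr2 and Lbp, whereas Cd14 was higher in all KO libraries than in any WT library.

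Downstream, 25 signalling genes were all tested in the hippocampus, where 2 rose and 6 fell with a median of -0.06, a share near the 29.2% of all genes called. The 3 subunits of the IKK complex, which releases NF-kappaB from its inhibitor, were among those that fell. Chuk, the IKK-alpha kinase, averaged 2166 ± 144 normalized counts in KO and 2947 ± 139 in WT hippocampus (SD, n = 3 each; log2 fold change -0.45 ± 0.06, limma adjusted p = 0.00197). Ikbkb, the IKK-beta kinase, had -0.36 ± 0.04 (limma adjusted p = 0.000898). With the trend of each library along the merged exonic length of genes (the length trend) removed, Ikbkb had 0.17, so its direction depends on that step. Ikbkg, the regulatory subunit, which overlaps G6pdx, had -0.33 ± 0.04 (limma adjusted p = 0.00157). Traf6, the ubiquitin ligase between the receptors and that complex, fell by 0.27 (limma adjusted p = 0.00592), and Tollip, an adaptor that restrains the signal, rose by 0.20 (limma adjusted p = 0.0113). The remaining calls, named after their values were seen, were Relb at 0.29 (limma adjusted p = 0.0214), Traf3 at -0.22 (limma adjusted p = 0.0355) and Irf3, which overlaps Bcl2l12, at -0.18 (limma adjusted p = 0.0185). Calls were lost with single libraries left out for Tollip (KO 2 or WT 3, at 0.19 to 0.20), Relb (any but WT 2, at 0.27 to 0.31), Traf3 (KO 2, KO 3, WT 2 or WT 3, at -0.22 to -0.17) and Irf3 (KO 1, KO 2 or WT 3, at -0.19 to -0.16). The adaptors Myd88 and Ticam1 had 0.04 ± 0.07 and -0.11 ± 0.09 and were not called.

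Of 24 genes that Toll-like receptors are known to induce, 14 passed the filter in the hippocampus and 13 in the cortex, and none was called in either. At an unadjusted p below 0.05 the whole pathway list held 12 of 53 genes tested in the hippocampus and 5 of 52 in the cortex. At the stricter adjusted threshold 29.2% of all genes were called in the hippocampus and 1.94% in the cortex. The shares of all genes at the unadjusted threshold are not given here, so nothing is read from the counts of 12 and 5. Socs3, Nfkbia, Nlrp3 and Cxcl10 were among the target genes not called in the hippocampus. Tnf was too low to test. The medians of these target genes were 0.14 in the hippocampus and 0.15 in the cortex, against 0.02 and -0.01 over all genes.

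Over the 65 genes of the 3 lists, 53 were tested in the hippocampus, and 4 rose and 6 fell, against a background of 29.2% of all genes called. In the cortex 52 were tested and limma called 0, against 1.94% of all genes. Without WT cortex library 2, which stood apart, 4 of the 52 were called, below the 21.3% of all genes called in that fit. The difference of the knockout effects between the regions, tested as an interaction, was called by limma for 0 of 51 genes. Over all genes 3.02% were called and 2.05% were called lower at that adjusted threshold. At an unadjusted p below 0.05 there were 7 of the 51. The share of all genes at the unadjusted threshold is not given here, so nothing is read from the 7. The difference was called for 3 genes without WT cortex library 2, where 9.24% of all genes were called. It was called for 1 gene without WT hippocampus library 2, WT cortex library 1 or WT cortex library 3, where 3.8%, 6.27% and 4.32% of all genes were called. A call in the hippocampus and none in the cortex therefore does not show that the regions differed for these genes.

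**Figure D4:**
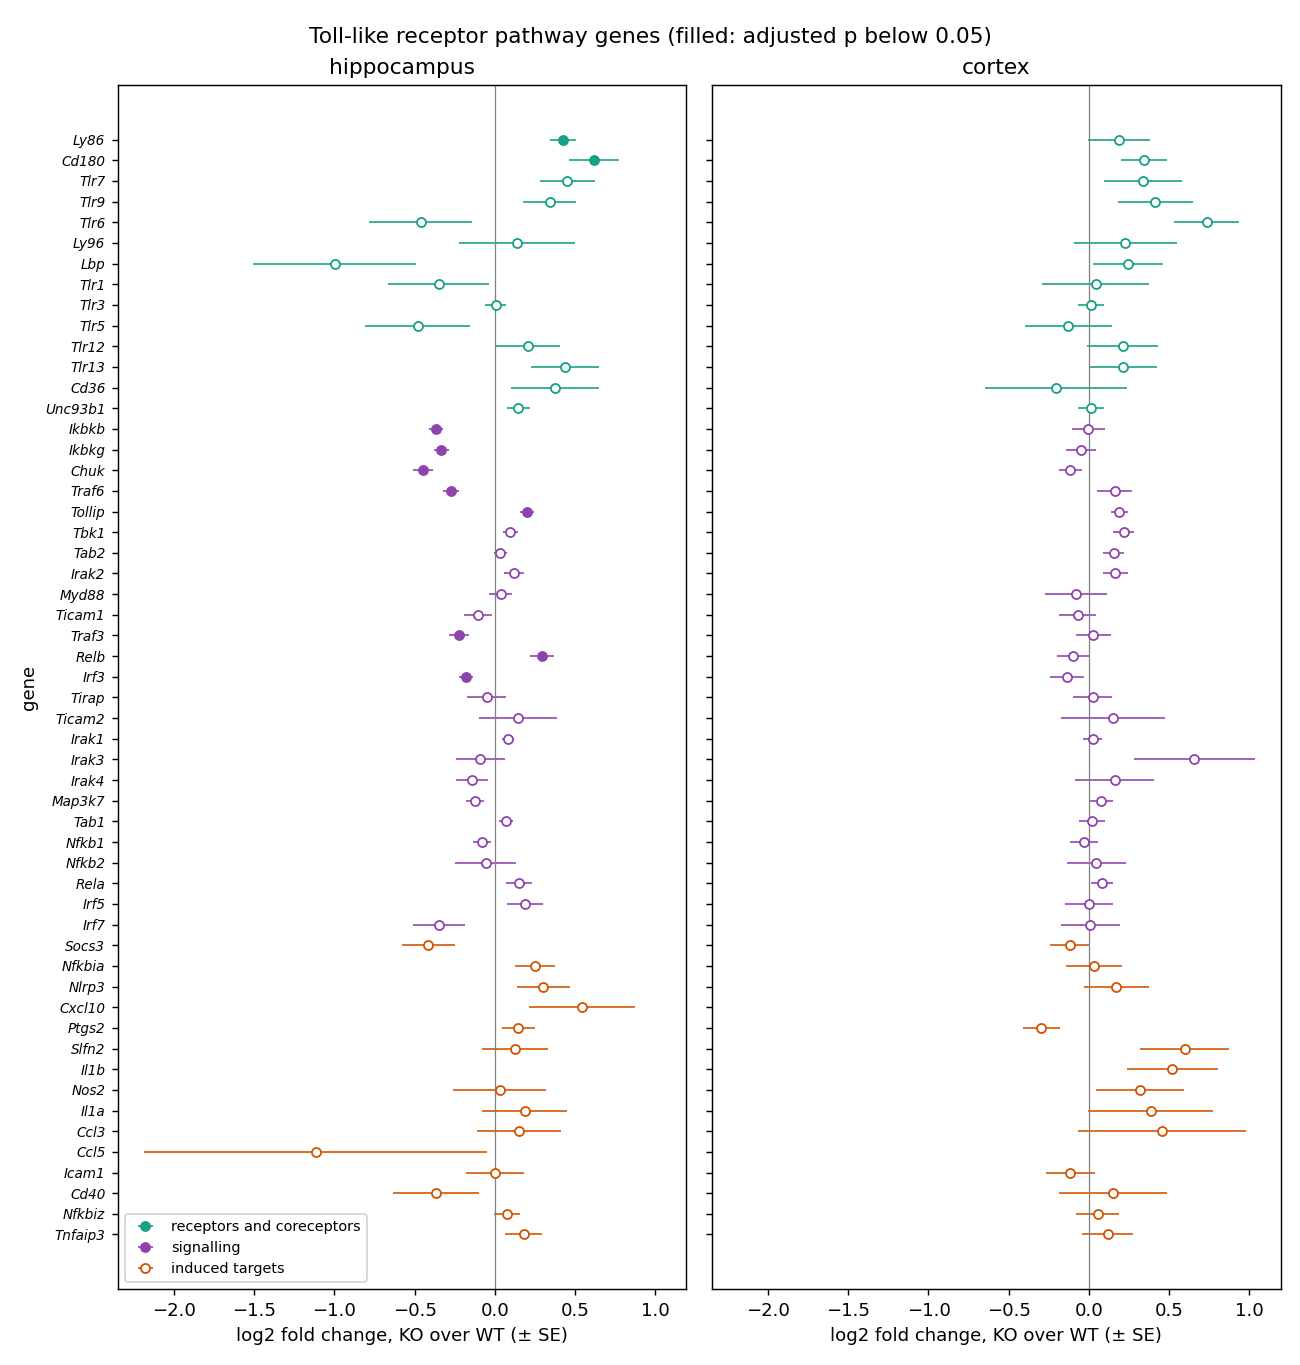
log2 fold changes, KO over WT, with SE, of the Toll-like receptor pathway genes tested in the hippocampus (left) and the cortex (right), coloured by role; filled points have a limma adjusted p below 0.05. In the hippocampus 10 points are filled, 4 above and 6 below 0, and in the cortex 0 are filled.

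Ligands that tissue damage releases onto TLR2 and TLR4, with partners of the 6 genes, made a list of 10, of which 9 were tested in each region. In the hippocampus 3 rose and 1 fell, where 29.2% of all genes were called and 14.1% were called higher. Hmgb1, a chromatin protein that acts on TLR4 when released, rose by 0.29 ± 0.06 (SE, limma adjusted p = 0.00998), and Hspd1, a mitochondrial chaperone, rose by 0.20 (limma adjusted p = 0.023), a call lost without KO library 2 or 3 or WT library 3 at 0.18 to 0.22. Slc22a17, the cell surface receptor of lipocalin-2, rose by 0.15 ± 0.04 (SE, limma adjusted p = 0.0417). That call was lost with any library but WT library 1 left out, at 0.13 to 0.16. Vcan, a matrix proteoglycan, fell by 0.27 (limma adjusted p = 0.016), had 0.13 with the length trend removed, and lost its call without KO library 1 or 2 or WT library 3, at -0.28 to -0.26. None of the 9 was called in the cortex, where 1.94% of all genes were.

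The genes most like each of the 6 were found as those with the smallest root mean square difference of log2 deviations from the mean of each table, over 12 libraries and 15553 protein-coding genes. They were picked on these same KO and WT libraries. Gaps between KO and WT in them can follow from that choice, and their values are a description only. Ngp was the nearest to S100a8 at 1.18, followed by Gm6588 at 1.22 and S100a9 at 1.34, where the median gene was at 2.25. Gm6588, which overlaps Sez6l on the other strand, averaged 22.5 ± 9.75 normalized counts in KO and 110 ± 9.77 in WT hippocampus, and 12.1 ± 7.83 in KO and 70.3 ± 8.80 in WT cortex (SD, n = 3 each). For S100a9 the nearest were Cox8b at 0.90, Slc39a5 at 0.92 and Zfp750 at 0.96, and for Lcn2 they were Gprc5a at 0.62, Npffr1 at 0.65 and Glp1r at 0.66. For Cd14 they were Pipox at 0.35, AL731706.1 at 0.36 and Gli1 at 0.39, where the median gene was at 0.70. Glp1r, which encodes the receptor of glucagon-like peptide 1, had 39.5, 43.5 and 44.9 normalized counts in KO cortex, against 139, 295 and 215 in WT cortex. Gli1, a transcription factor of Hedgehog signalling that overlaps Arhgap9 on the other strand, averaged 280 ± 42.5 in KO and 151 ± 35.9 in WT hippocampus. For Tlr2 the nearest were Prdm1 at 0.14, Foxq1 at 0.15 and Rasgef1b at 0.15, and for Tlr4 they were Spata4, Efcab7 and Ccdc155, each at 0.16.

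Markers of vessels and meninges completed the check of other cells. The summed endothelial markers were 22706 to 22815 normalized counts in KO hippocampus, against 41240, 18189 and 29639 in WT hippocampus, and 20542 to 22863 in KO cortex, against 17017 to 17972 in WT cortex. For the calls that follow, 29.2% of all genes were called in the hippocampus and 1.94% in the cortex. Called lower were 15.1% in the hippocampus and 0.661% in the cortex, and called higher were 1.28% in the cortex. Of the 10 endothelial markers 0 were called in the hippocampus and 1 rose in the cortex. Of the 10 choroid plexus markers 1 fell in the hippocampus and 1 rose in the cortex, where their sums were 2690, 11661 and 7240 in KO and 1731, 1908 and 1626 in WT libraries. Of the 10 meningeal fibroblast markers 0 were called in the hippocampus and 1 fell in the cortex, where their sum was 4461 to 7505 in KO, against 7933 to 8483 in WT. The part of these cells in the values of the 6 genes was not tested.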

How the data were processed

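The authors deposited 1 table per tissue, 55487 genes by 6 libraries, holding a signal named normalized counts in the table titles. The submitters' processing notes list STAR, HTSeq, DESeq2 and the build GRCm38, without versions. Within each library all values (100%) were whole multiples of 1 step within 0.001, taken as 1 read. Gene names came from the GENCODE annotation of GRCm38, which held 55227 of the IDs. In each tissue genes that averaged 10 or more normalized counts were fitted with limma 3.58.1 (R 4.3.3, trended prior variance) on log2(normalized count + 1), with Benjamini-Hochberg adjustment over all genes tested and a threshold of 0.05; a fit of 12 libraries gave the difference between tissues. Folds on this scale understate changes of low genes. The fits were tested on simulated data. edgeR 4.0.16 and DESeq2 1.42.0 were run on the recovered reads of the hippocampus as alternatives. The 6 genes and all gene lists were chosen with earlier results of these data known. Named were the 6 genes, up to 4 genes per list and tissue by smallest p, the direct partners, and the 3 protein-coding genes most like each member. Same-numbered KO and WT libraries did not deviate together (correlations from -0.06 to 0.09), so numbers were not used as pairs. Precision was limited by 3 libraries a group and, for S100a8, S100a9 and Lcn2, by their low read counts; floors cover counting error only.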

Additional observations from a re-analysis of the deposited data

Results flagged for a closer look

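The knockout effect on Gfap differed between the regions by a test of the difference itself. Its log2 fold change was 0.26 ± 0.04 in the hippocampus and -0.31 ± 0.06 in the cortex, a difference of 0.57 (limma interaction, adjusted p = 0.00295). Gfap averaged 37132 normalized counts in KO and 30947 in WT hippocampus, and 6792 in KO and 8421 in WT cortex. In the cortex the summed hippocampal neuron markers were 16342 to 16661 normalized counts in KO and 18837 to 19949 in WT libraries. The part of RNA from hippocampal tissue in the Gfap values of the cortex was not tested. The difference ranged between 0.55 and 0.60 over its alternatives and was called in each, whereas the call in the cortex alone was lost with any library but WT library 2 left out. Groups of 3 libraries are too small for a test of single outlying samples.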

How the results depend on the processing

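For the 6 genes, 173 of 174 alternative values moved by less than the spread between replicates. The exception was S100a8 in the cortex, at -2.86 with a pseudocount of 5. Many of the 174 could not move, since changes of the filter, of the prior variance or to the replicate block leave a fold change as it was. The spread was also wide, at 1.84 on the log2 scale for S100a9 in the cortex. The count of 173 is therefore no measure of stability. The sign changed in 5 of the 174, all in the hippocampus and near 0: Lcn2 (0.07 with quantile normalization and 0.07 without KO library 2), Tlr2 (0.04 with quantile normalization and 0.0035 without WT library 3) and Tlr4 (0.05 with quantile normalization). With a filter at a mean of 50, S100a8, S100a9 and Lcn2 gave no value. Of the pathway genes in the hippocampus 10 were called, 8 to 11 under other settings, 10 each by edgeR and DESeq2, and 6 to 12 with single libraries left out, with 6 without KO library 2 and 6 without WT library 3. In the cortex 0 were called, 1 without a trend of the prior variance (Tlr6 at 0.73), and 0 to 4 with single libraries left out. For the difference between tissues 0 were called, and 0 to 3 with single libraries left out. Among the genes named by rule, Ikbkb (0.17), Vcan (0.13) and Slc39a14 (0.23) reversed in the hippocampus with the length trend removed. Nfkb1, added after its values were seen, had 0.23 there, against -0.08. Where a library decided a count, the cause was not tested. The numbers did not pair the libraries; with the replicate block 10 pathway genes were called in the hippocampus (5 rose, 5 fell), 0 in the cortex and 0 for the difference. edgeR and DESeq2 were not run in the cortex, where the value of 1 read could not be checked in WT libraries 1 and 2. Low read counts limit S100a8, S100a9 and Lcn2.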
